A study of Mus musculus with 13 samples.

Results

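Ly9, Cd84, Slamf8, Slamf9 and Cd48 are 5 of the 9 receptors of the signalling lymphocytic activation molecule (SLAM) family, taken by gene symbol from 55401 annotated identifiers and followed through mouse brain during cuprizone demyelination and early recovery. They were picked with results of these libraries in view, so their levels and fold changes are given as a description with no test. Bulk RNA-seq had been made from a frozen brain hemisphere of wild-type C57BL/6J male mice, and the sources used here do not tie each of the 13 libraries to its own mouse, so spreads and p-values are between libraries. The CTL group (5 libraries) ate control diet for 6 weeks, the CPZ group (4 libraries) ate 0.3% cuprizone for 4 weeks, and the RCV group (4 libraries) ate 0.3% cuprizone for 4 weeks and then control diet for 2 weeks. Mice entered the study at 6 to 8 weeks of age by the labels, and the paper's methods, which give the strain, put them somewhat older. CPZ mice were collected at week 4 and CTL and RCV mice at week 6, so CPZ also differed from the other groups in age at collection. The titles of the RCV libraries call them vehicle, and their treatment label gives the recovery. A hemisphere mixes all brain regions, and cuprizone, a copper chelator that kills mature oligodendrocytes, acts without an introduced antigen or transgene.

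SLAM receptors are membrane proteins of the immunoglobulin superfamily carried mainly by blood-derived cells, and most bind the same receptor on a neighbouring cell. Tyrosine motifs in the tails of LY9 (SLAMF3, CD229) and CD84 (SLAMF5) recruit small SH2 adaptors, Src-family kinases and SH2 phosphatases, through which the receptors raise or lower cell activation. CD48 (SLAMF2) has a lipid anchor in place of a tail and binds CD244 and CD2, and SLAMF8 and SLAMF9 have short tails without these motifs. In brain, myeloid cells, that is microglia and macrophages of its borders and blood, are the usual source of such receptors.

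All 9 receptor genes lie on chromosome 1 (positions from GENCODE M21, GRCm38/mm10). A cluster of 7 genes runs from Cd244a to Slamf6 (chr1:171559193-171953170, 394 kb) and holds Ly9 (chr1:171588624-171607410, minus strand), Cd48 (chr1:171682009-171705258, plus strand) and Cd84 (chr1:171839697-171890718, plus strand). Slamf9 (chr1:172475358-172478575, plus strand) and Slamf8 (chr1:172581758-172590568, minus strand) form a pair 115 kb across. Ly9 lies within the span of Cd244a on the opposite strand, and the exons of the 2 genes share 0 bases. The promoters of 4 of the 5 members were in the RefSeq table used, with no entry for Ly9. The 250 bases before each start are shown to set the 4 promoters side by side. Capitals mark matches, on either strand, to GAGGAA (the core of sites of the myeloid factor PU.1), TGANTCA (an AP-1 site), the core of an interferon-stimulated response element (ISRE, GAAA, any 2 bases and GAAA) or CACGTG (an E-box), and no 2 matches overlap in these 4 sequences.
Cd84: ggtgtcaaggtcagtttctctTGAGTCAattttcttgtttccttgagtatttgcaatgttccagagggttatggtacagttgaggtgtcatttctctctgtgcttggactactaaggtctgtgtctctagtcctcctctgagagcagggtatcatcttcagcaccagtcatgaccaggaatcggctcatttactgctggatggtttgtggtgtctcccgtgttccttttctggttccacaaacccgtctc
Slamf9: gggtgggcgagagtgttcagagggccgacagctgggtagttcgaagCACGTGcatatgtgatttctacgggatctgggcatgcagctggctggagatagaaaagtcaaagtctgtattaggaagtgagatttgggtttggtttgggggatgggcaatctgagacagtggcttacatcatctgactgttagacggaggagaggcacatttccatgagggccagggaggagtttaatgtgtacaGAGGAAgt
Slamf8: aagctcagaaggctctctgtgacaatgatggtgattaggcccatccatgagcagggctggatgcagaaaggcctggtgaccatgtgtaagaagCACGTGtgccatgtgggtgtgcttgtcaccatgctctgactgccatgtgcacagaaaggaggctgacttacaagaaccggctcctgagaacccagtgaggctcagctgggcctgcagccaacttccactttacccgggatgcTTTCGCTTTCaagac
Cd48: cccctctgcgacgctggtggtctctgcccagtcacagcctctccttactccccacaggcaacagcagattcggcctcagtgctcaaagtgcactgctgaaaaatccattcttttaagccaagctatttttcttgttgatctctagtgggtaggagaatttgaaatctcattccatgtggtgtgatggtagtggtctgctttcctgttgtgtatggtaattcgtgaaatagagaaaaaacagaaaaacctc
These are RefSeq GRCm38.p6 sequences, 5′ to 3′ on the gene's strand, from chr1:171839447-171839696 (plus) for Cd84, chr1:172475110-172475359 (plus) for Slamf9, chr1:172590569-172590818 (minus) for Slamf8 and chr1:171681742-171681991 (plus) for Cd48. Cd84 held 1 TGANTCA 229 bases before the start. Slamf9 held GAGGAA at 8 bases and CACGTG at 204 bases before the start, and Slamf8 held the ISRE core at 15 bases and CACGTG at 157 bases. Cd48 held none of the 4 in this window. Among 32851 promoters of the same length, 23.3% held GAGGAA, 6.75% TGANTCA, 2.98% the ISRE core and 6.02% CACGTG, and the members shared only CACGTG, in Slamf8 and Slamf9.

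The 13 libraries held 4605100 to 8197289 estimated counts, and a minimum on counts left 14985 genes to test. The markers of brain were in place, with 4079 to 5295 CPM (counts scaled to library size) summed over 6 neuron markers. RCV replicate 3 had the lowest value of Ly9, Cd84, Slamf8, Slamf9 and Cd48 in its group, by TPM (a level scaled to transcript length and library size), and results that rest on it are given without it too. In CPZ the sum of 6 mature oligodendrocyte markers ran from 1508 to 2709 CPM against 3780 to 7108 in CTL and 5004 to 8548 in RCV, and the sum of 15 microglia markers ran from 1441 to 2984 against 431 to 510 in CTL and 645 to 892 in RCV.

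Ly9, a self-binding receptor known from T, B and myeloid cells, was close to absent from CTL brain and stood among the most increased genes of CPZ. The estimated counts of Ly9 were 1, 1, 1, 3 and 3 in the 5 CTL libraries, 98, 86, 46 and 73 in CPZ, and 34, 27, 9 and 31 in RCV. Every CPZ and RCV library lay above every CTL library, and CPZ and RCV overlapped once scaled for depth, because CPZ replicate 3 (5.57 TPM) was below RCV replicate 4 (5.86 TPM). Levels of Ly9 averaged 0.298 ± 0.183 TPM in CTL (SD, n = 5), 8.90 ± 2.92 TPM in CPZ (SD, n = 4) and 4.04 ± 1.70 TPM in RCV (SD, n = 4). In bulk tissue, a change in the number of cells that carry Ly9 and a change in Ly9 RNA per cell cannot be told apart. Its fitted log2 fold change was 5.09 (SE 0.44) for CPZ against CTL, 3.91 (SE 0.49) for RCV against CTL and 1.18 (SE 0.31) for CPZ against RCV. With 9 counts over all CTL libraries the ratio itself is loosely held. Summed counts scaled for depth gave a CPZ to CTL ratio of 36.4 (exact 95% interval 18.9 to 80.3, counting error only) and an RCV to CTL ratio of 16.01 (8.11 to 36.0). By log2 fold change Ly9 ranked 15 of 14985 genes in CPZ against CTL, 7 in RCV against CTL and 357 in CPZ against RCV.

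Cd84, a self-binding receptor of myeloid cells, platelets and lymphocytes, had the highest level of the 5 in every group. Its levels were 3.60, 2.75, 2.06, 2.93 and 1.30 TPM in CTL, 47.5, 32.1, 18.3 and 24.2 TPM in CPZ, and 6.01, 6.73, 5.0 and 14.9 TPM in RCV. None of the 3 groups overlapped another, and RCV replicate 4 stood highest in RCV. The log2 fold change of Cd84 was 3.53 (SE 0.27) for CPZ against CTL and 1.62 (SE 0.31) for RCV against CTL, and 1.92 (SE 0.26) for CPZ against RCV. These came from 9 to 22 counts in each CTL library, 146 to 306 in CPZ and 28 to 56 in RCV, the deepest counts among the members.

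Slamf9, a short-tailed receptor of macrophages and dendritic cells, gave 1.18, 0.53, 0.54, 1.36 and 0.33 TPM in CTL, 12.6, 14.9, 7.55 and 9.64 TPM in CPZ, and 3.33, 5.08, 2.64 and 3.07 TPM in RCV. Its 3 groups did not overlap either. The log2 fold change of Slamf9 was 3.75 (SE 0.34) for CPZ against CTL, 2.11 (SE 0.40) for RCV against CTL and 1.64 (SE 0.30) for CPZ against RCV.

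Cd48, the lipid-anchored ligand of CD244 and CD2, gave 1.44, 1.23, 0.91, 1.53 and 1.01 TPM in CTL, 15.9, 9.62, 12.7 and 5.93 TPM in CPZ, and 5.87, 5.73, 4.10 and 6.49 TPM in RCV. All CPZ and RCV libraries were above all CTL libraries, and CPZ replicate 4 fell inside the RCV range. The log2 fold change of Cd48 was 3.29 (SE 0.32) for CPZ against CTL, 2.30 (SE 0.36) for RCV against CTL and 0.99 (SE 0.28) for CPZ against RCV, the smallest CPZ to RCV step of the 4 members that passed the filter.

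Slamf8, a short-tailed receptor known to restrain the phagocyte oxidase, was the least abundant in CPZ and RCV and did not pass the filter. Its estimated counts were 1, 1, 2, 2 and 2 in CTL, 13, 7, 12 and 3 in CPZ, and 6, 6, 0 and 6 in RCV. CPZ lay above CTL by a narrow margin at CPZ replicate 4 (0.53 TPM, against at most 0.51 TPM in CTL), and RCV replicate 3 at 0 counts lay below CTL. Summed counts gave a CPZ to CTL ratio of 4.72 (exact 95% interval 2.15 to 11.8, counting error only) and an RCV to CTL ratio of 3.21 (1.33 to 8.53). The CPZ to RCV ratio of Slamf8 was 1.47 (0.811 to 2.76), a difference not detectable at this depth. In a fit without the filter its log2 fold changes were 2.19 (SE 0.62), 1.59 (SE 0.68) and 0.60 (SE 0.57) in the same order of contrasts.

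**Figure D1:**
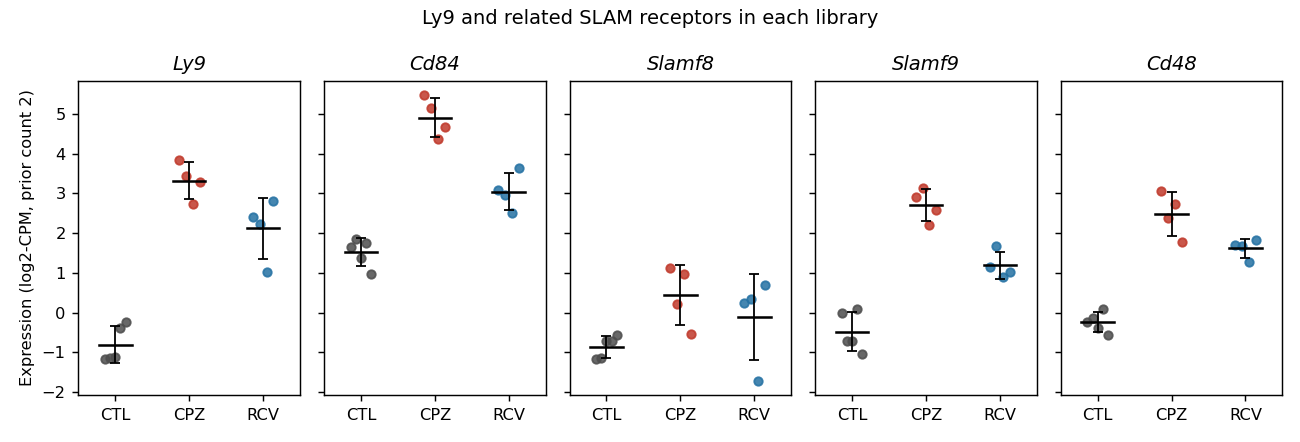
Expression of Ly9, Cd84, Slamf8, Slamf9 and Cd48 in each library (log2-CPM with a prior count of 2) for CTL (n = 5), CPZ (n = 4) and RCV (n = 4). Points are libraries, long bars group means and whiskers the SD. Ly9 rises from a mean of -0.81 in CTL to 3.33 in CPZ and stands at 2.12 in RCV, and RCV replicate 3 is the lowest RCV point in all 5 panels.

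Set side by side, 4 of the 5 members passed the filter, and these 4 were called higher (edgeR quasi-likelihood test, Benjamini-Hochberg adjusted p below 0.05) in all 3 contrasts. Among all genes tested, 7.66% were called higher in CPZ against CTL, 0.36% in RCV against CTL and 5.13% in CPZ against RCV, and since the members were picked from these contrasts nothing is read from the comparison. All CPZ libraries lay above all CTL libraries for the 4 (8.25% of all genes), all RCV libraries above all CTL libraries for the 4 (2.21% of all genes), and all CPZ libraries above all RCV libraries for 2, Cd84 and Slamf9 (8.26% of all genes), again with nothing read from it. The median log2 fold change over all genes tested was -0.02, -0.0044 and -0.0066 in the 3 contrasts. Under 23 alternative settings the calls of the 4 members in CPZ against CTL stayed past the threshold, which describes the values that picked them and supports nothing further. In RCV against CTL, Ly9 was called in 22 of 23 settings, Cd48 in 20 of 23, Slamf9 in 11 of 22 and Cd84 in 7 of 23. Limma-voom called none of the 4 there. Leaving out CTL replicate 1, 2, 3 or 5 or RCV replicate 1, 2 or 4 ended the calls of Slamf9 and Cd84, and leaving out CTL replicate 4 or CPZ replicate 2 or 4 ended that of Cd84. In CPZ against RCV, Cd84 and Slamf9 were called in 23 of 23 settings, Ly9 in 12 of 23 and Cd48 in 6 of 23. There Ly9 and Cd48 both lost their call without CPZ replicate 1 or 2 or RCV replicate 1, 2 or 3, Cd48 also without CTL replicate 1 or 2, CPZ replicate 3 or RCV replicate 4 and by DESeq2 and limma-voom, and Ly9 also without CPZ replicate 4.

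The order of levels, by mean TPM, changed between groups. In CTL it was Cd84 (2.53), Cd48 (1.22), Slamf9 (0.788), Slamf8 (0.344) and Ly9 (0.298), and the ranges of each neighbouring pair overlapped. In CPZ it was Cd84 (30.5), Slamf9 (11.2), Cd48 (11.03), Ly9 (8.90) and Slamf8 (1.60), where Slamf9, Cd48 and Ly9 overlapped one another and Cd84 and Slamf8 stood clear of them. In RCV it was Cd84 (8.15), Cd48 (5.55), Ly9 (4.04), Slamf9 (3.53) and Slamf8 (1.06), with every neighbouring pair overlapping except Slamf9 and Slamf8. Ly9 thus went from the lowest mean of the 5 in CTL to the third in RCV.

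**Figure D2:**
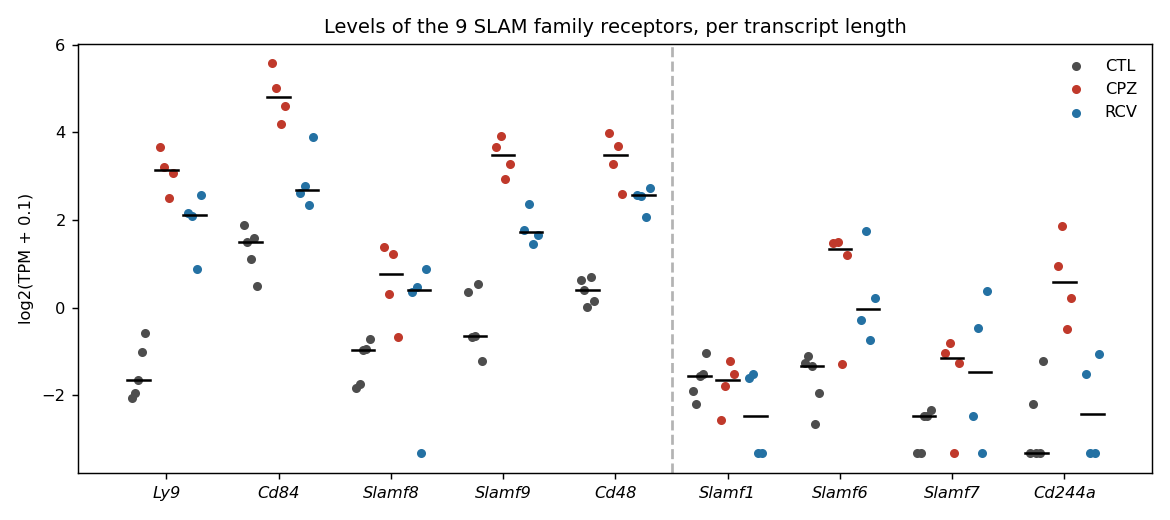
Levels of the 9 SLAM family receptors as log2(TPM + 0.1) in each library, coloured by group, with black lines at group medians; the 5 members stand left of the dashed line. Cd84 is highest in every group, and among the other receptors Cd244a reaches 0.61 to 3.52 TPM in CPZ. Slamf6 reaches 0.31 to 2.72 TPM in CPZ and 0.5 to 3.24 TPM in RCV, while Slamf1 stays at or below 0.39 TPM in all libraries.

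Mean shares of the CPZ change still present 2 weeks after cuprizone differed between members, but the members' ranges over all RCV libraries overlapped one another. For each RCV library the distance of its log2-CPM from the CTL mean was divided by the distance between the CPZ and CTL means. This share was 0.708 ± 0.185 for Ly9 (SD, n = 4), 0.684 ± 0.0878 for Cd48, 0.522 ± 0.11 for Slamf9 and 0.45 ± 0.137 for Cd84. For the mean log2-CPM of 15 microglia markers, which are no members and serve as a yardstick for microglial RNA, it was 0.347 ± 0.0867. Every RCV library was above the microglia range (0.236 to 0.418) for Ly9 (0.444 to 0.876), Cd48 (0.558 to 0.761) and Slamf9 (0.427 to 0.68), and Cd84 (0.291 to 0.624) overlapped it. An equal share on a linear scale gives a larger log-scale share where the CPZ fold is larger. No other genes with folds like those of the members were set beside these ranges, and no share over all genes was computed. The members were picked with these contrasts known, so nothing is read from a separation from the microglia range. The share of Slamf8 ran from -0.652 to 1.18. Without RCV replicate 3 the means were 0.796 for Ly9, 0.726 for Cd48, 0.554 for Slamf9, 0.503 for Cd84 and 0.385 for the microglia markers. On the linear CPM scale the shares were smaller, 0.425 for Ly9, 0.446 for Cd48, 0.264 for Slamf9 and 0.199 for Cd84 against 0.185 for the summed microglia markers, and there Ly9 (0.147 to 0.656) and Slamf9 (0.183 to 0.413) overlapped the microglia range (0.107 to 0.248) while Cd48 (0.311 to 0.535) did not.

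Microglial markers moved with the members, so the receptors were also expressed per 1000 estimated counts of the same 15 markers. All 15 markers were called higher in CPZ against CTL, with a median log2 fold change of 2.41 and a range from 0.75 (Sall1, a microglial transcription factor) to 3.46 (Tyrobp, the adaptor of TREM2). In RCV against CTL 1 of the 15 was called and the median was 0.68. Per 1000 marker counts, Ly9 ran from 0.294 to 1.25 in CTL, from 3.96 to 5.18 in CPZ and from 2.69 to 8.06 in RCV. Cd84 ran from 3.74 to 6.85 in CTL, from 13.2 to 14.8 in CPZ and from 8.35 to 14.6 in RCV. For these receptors and for Slamf9 (0.416 to 1.71, 2.41 to 3.22 and 2.08 to 3.27) both CPZ and RCV lay above CTL without overlap, and CPZ and RCV overlapped. This ratio was not computed over all genes, and the members were picked with their fold changes known. Nothing is therefore read from this separation. Cd48 ran from 0.832 to 1.71 in CTL and from 3.27 to 3.90 in RCV, whereas CPZ (1.70 to 4.43) touched the CTL range. Slamf8 overlapped across all groups, at 0.294 to 0.832, 0.213 to 1.16 and 0 to 1.56. The part of microglial number or state in these values was not tested.

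**Figure D3:**
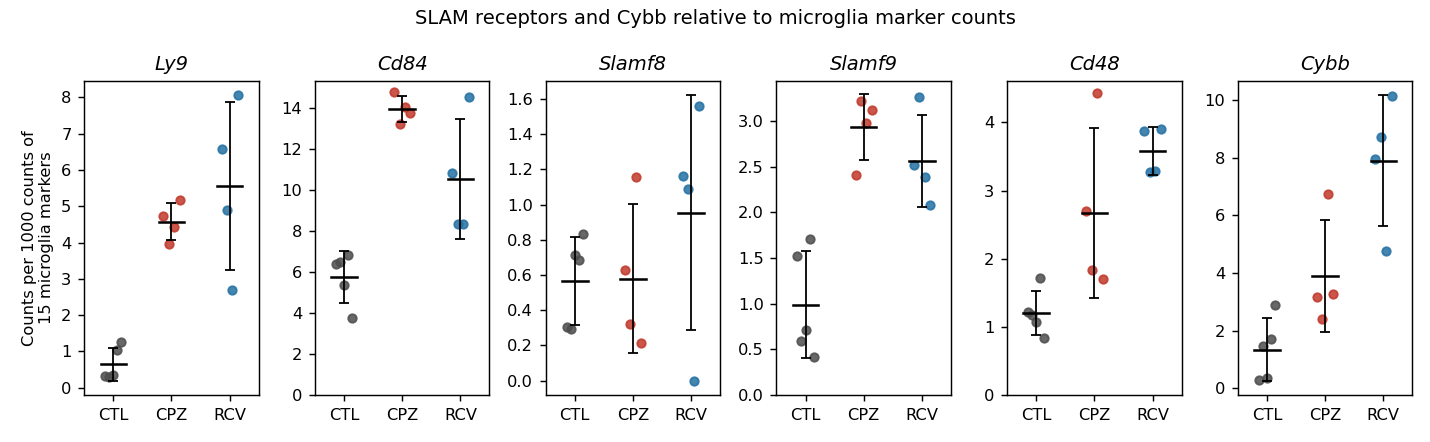
Estimated counts of each member, and of the oxidase subunit Cybb, per 1000 estimated counts of 15 microglia markers in each library (points), with group means (long bars) and SD (whiskers). Vertical scales differ between panels. The CPZ and RCV points of Ly9, Cd84 and Slamf9 all lie above the CTL points, and Slamf8 shows no separation of the groups. No share over all genes was computed for this ratio.

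Markers of other blood cells that carry SLAM receptors were uneven. Of the genes of the T cell receptor complex, Cd3e, Cd3d and Cd3g had 0 to 2 counts in any library. Trac, also of that complex, had 0 to 7 in CTL, 1 to 8 in CPZ and 2 to 8 in RCV. Cd4 had 13 to 148 in CTL, 32 to 102 in CPZ and 0 to 94 in RCV. The T cell marker Cd5 had 0 to 2 in CTL, 3 to 6 in CPZ and 0 or 1 in RCV, and Cd28 had 0 to 5, 3 to 9 and 0 to 4. The summed T cell list (8 genes, mostly Cd4) ran from 2.85 to 22.2 CPM in CTL, 6.84 to 17.1 in CPZ and 0.77 to 18.2 in RCV. Of the B cell markers, Ms4a1 had 0 or 1 count, Cd79b 0 to 2 in CTL, 2 to 11 in CPZ and 0 to 3 in RCV, and Ighm 76 to 173 in CTL, 223 to 318 in CPZ and 53 to 161 in RCV. The summed neutrophil list ran from 0 to 10.7 CPM in CTL, 0 to 0.646 in CPZ and 0.486 to 9.97 in RCV, with S100a8 and S100a9 at 25 and 37 counts in CTL replicate 2 and 35 and 23 in RCV replicate 1. The summed NK cell list ran from 0.136 to 10.4 CPM in CTL, 0.432 to 2.45 in CPZ and 0.147 to 0.577 in RCV, with Ncr1 at 0 or 1 count and Eomes at 67 counts in CTL replicate 2 and 15 in CPZ replicate 4. The mast cell list summed to at most 1.15 CPM in any library. The summed B cell list (6 genes, mostly Ighm) ran from 12.1 to 26.6 CPM in CTL, 30.9 to 42.9 in CPZ and 16.9 to 34.0 in RCV. It lay above CTL in every CPZ library and overlapped CTL in RCV. RCV replicate 3, the lowest there, held 32 counts of the B cell marker Pax5 beside 53 of Ighm. The part of B cells in the values of the receptors was not tested. None of the markers of border macrophages (2 of 8 tested), monocytes (1 of 6), dendritic cells (2 of 6), T cells (1 of 8) and B cells (1 of 6) that passed the filter was called in any contrast by edgeR, and no marker of neutrophils, NK cells or mast cells passed it. Of these 7 tested markers, 1 (Ighm, the immunoglobulin heavy chain) had an unadjusted p below 0.05, in CPZ against CTL, where DESeq2 and limma-voom called it higher, and none did in the other 2 contrasts. The summed border macrophage list ran from 4.62 to 11.2 CPM in CTL, 7.36 to 12.1 in CPZ and 5.83 to 13.2 in RCV, and the monocyte list, mostly Itga4, from 11.9 to 22.2, 7.90 to 15.5 and 7.81 to 37.1. The dendritic cell list, mostly Flt3 and Zbtb46, ran from 17.7 to 30.7, 22.1 to 30.7 and 21.7 to 31.4. Its markers Xcr1 and Clec9a had 0 or 1 count in any library.

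The other 4 receptors of the family did not pass the filter in the fit of all 13 libraries. Cd244a, the receptor that CD48 binds, had 0, 1, 0, 0 and 1 counts in CTL, 23, 37, 8 and 12 in CPZ, and 2, 0, 0 and 1 in RCV. It was thus detected mainly in CPZ, with a CPZ to RCV ratio of 20.2 (exact 95% interval 6.66 to 99.95, counting error only) and a CPZ to CTL ratio of 43.2 (11.6 to 363). The RCV to CTL ratio of Cd244a was 2.14 (0.245 to 25.6), from 3 and 2 counts, beside 16.01 for Ly9, which lies within its span. Slamf6, a self-binding receptor of lymphocytes, had 1 to 4 counts in CTL, 13, 16, 4 and 15 in CPZ and 3 to 8 in RCV, a CPZ to CTL ratio of 5.18 (2.59 to 11.5). Slamf1, the founding member, had 0 to 3 counts in any library and a CPZ to CTL ratio of 0.972 (0.349 to 2.66). Slamf7, known from NK and plasma cells, had 0 to 3 counts in any library. Cd2, the other partner of CD48, had 0 or 1 count in every library.

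The SH2 adaptors that join SLAM tails to kinases were barely present. Sh2d1a (SAP) had 0 to 3 counts in any library, Sh2d1b1 (EAT-2) 0 to 3 and Sh2d1b2 at most 1, and none passed the filter. Of 18 further partners of SLAM signalling, all of which passed it, 8 rose in CPZ against CTL and 0 fell (1, Pik3c3, was lower at an unadjusted p below 0.05, and DESeq2 and limma-voom called 0 lower), against 10.2% of all genes called in either direction. Lyn and Fgr, kinases of the Src family, rose by log2 fold changes of 2.09 (SE 0.18, adjusted p = 1.18e-06) and 4.22 (SE 0.51, adjusted p = 2.64e-05) by edgeR. The phosphatases SHP-1 (Ptpn6) and SHIP1 (Inpp5d), which bind inhibitory tyrosine motifs, rose by 2.84 (SE 0.26, adjusted p = 3.24e-06) and 1.83 (SE 0.20, adjusted p = 2.99e-05). The exchange factor Vav1 rose by 2.36 (SE 0.27), the phospholipase Plcg2 by 1.72 (SE 0.21) and Cybb, the catalytic subunit of the phagocyte oxidase, by 3.69 (SE 0.42), with adjusted p of 2.39e-05, 3.13e-05 and 1.79e-05. The median microglia marker changed by 2.41 in the same contrast, and how far these 8 genes followed microglial RNA was not tested. The list of partners was chosen with earlier results of these data known. Nothing is therefore read from how many of them were called in this or the other contrasts.

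The remaining 10 partners were not called in any contrast. Fyn, the kinase that SAP recruits in lymphocytes, had a log2 fold change of 0.06 (SE 0.06, adjusted p = 0.627 by edgeR) in CPZ against CTL. SHP-2 (Ptpn11) stood at -0.09, Csk at 0.06, Grb2, which binds the tail of LY9, at -0.03, and Ap2m1, the clathrin adaptor subunit that also binds LY9, at -0.10. The lymphocyte kinases Lck and Prkcq gave -0.32 and -0.20, and Lck, at -0.84 in CPZ against RCV (adjusted p = 0.235 by edgeR), was called lower there with limma on TPM. The autophagy proteins Becn1, Pik3c3 and Uvrag, partners of SLAMF1, gave -0.03, -0.17 and -0.04.

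In recovery 1 of the 18 partners was called against CTL, beside 0.374% of all genes. Cybb rose by 3.38 (SE 0.44, adjusted p = 0.00254 by edgeR) in RCV against CTL, and its CPZ against RCV difference was 0.31 (adjusted p = 0.685). Cybb was called in the first of these contrasts and not in the second under every alternative. The other 7 partners that rose in CPZ were called higher in CPZ than in RCV, beside 7.01% of all genes, with log2 fold changes from 1.03 (Plcg2, adjusted p = 0.00788) to 1.88 (Ptpn6, adjusted p = 0.000514). In RCV against CTL these 7 stood between 0.49 (Lyn, adjusted p = 0.646) and 2.41 (Fgr, adjusted p = 0.169), each with an unadjusted p below 0.05 but none past the adjusted threshold. The CPZ against RCV call of Fgr was lost without CPZ replicate 1 or RCV replicate 1 and with limma on log2(TPM + 0.1). Those of Inpp5d and Plcg2 were lost with limma on TPM at either pseudocount. Per 1000 microglia marker counts Cybb ran from 0.305 to 2.91 in CTL, 2.39 to 6.74 in CPZ and 4.78 to 10.1 in RCV.

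**Figure D4:**
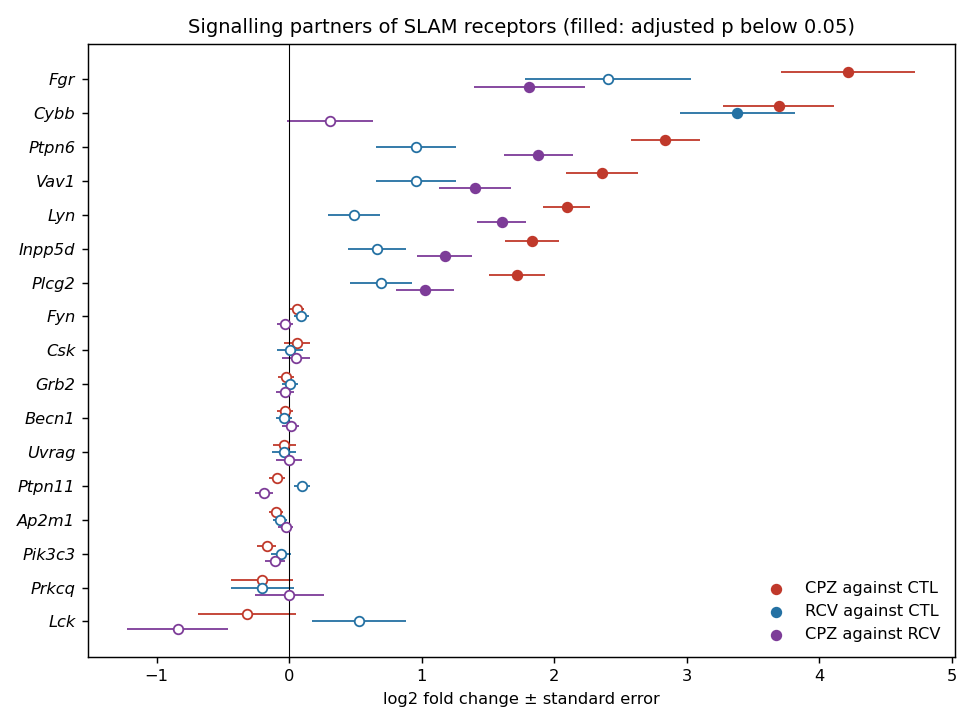
Log2 fold change with standard error (edgeR) of 17 of the 18 signalling partners in the contrasts of CPZ with CTL, RCV with CTL and CPZ with RCV. Filled points have an adjusted p below 0.05. The 7 upper genes rise in CPZ, and among them Cybb alone is filled in RCV against CTL and open in CPZ against RCV.

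The 61 annotated genes that start within 250 kb of a SLAM receptor gene and are no receptors of the family served as neighbours, and 24 of them were tested. Their median log2 fold change in CPZ against CTL was 0.0023, and 3 were called higher and 1 lower by edgeR, beside 10.2% of all genes called, and the same 4 were called in CPZ against RCV, beside 7.01%. Arhgap30, a GTPase-activating protein of blood cells, rose by 2.08 (SE 0.22, adjusted p = 7.29e-06), F11r, a junctional adhesion molecule, by 1.38 (SE 0.23, adjusted p = 0.000771) and Tagln2, an actin-binding protein, by 1.14 (SE 0.14, adjusted p = 3.98e-05). Igsf8 fell by 0.28 on the log2 scale (SE 0.05, adjusted p = 0.00252). In RCV against CTL 0 of the 24 passed the threshold with edgeR, and 0 with DESeq2 or limma-voom, while 1, Arhgap30, had an unadjusted p below 0.05. The log2 fold changes of the 24 ran from -0.33 to 2.08 in CPZ against CTL and from -0.58 to 0.77 in RCV against CTL.

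**Figure D5:**
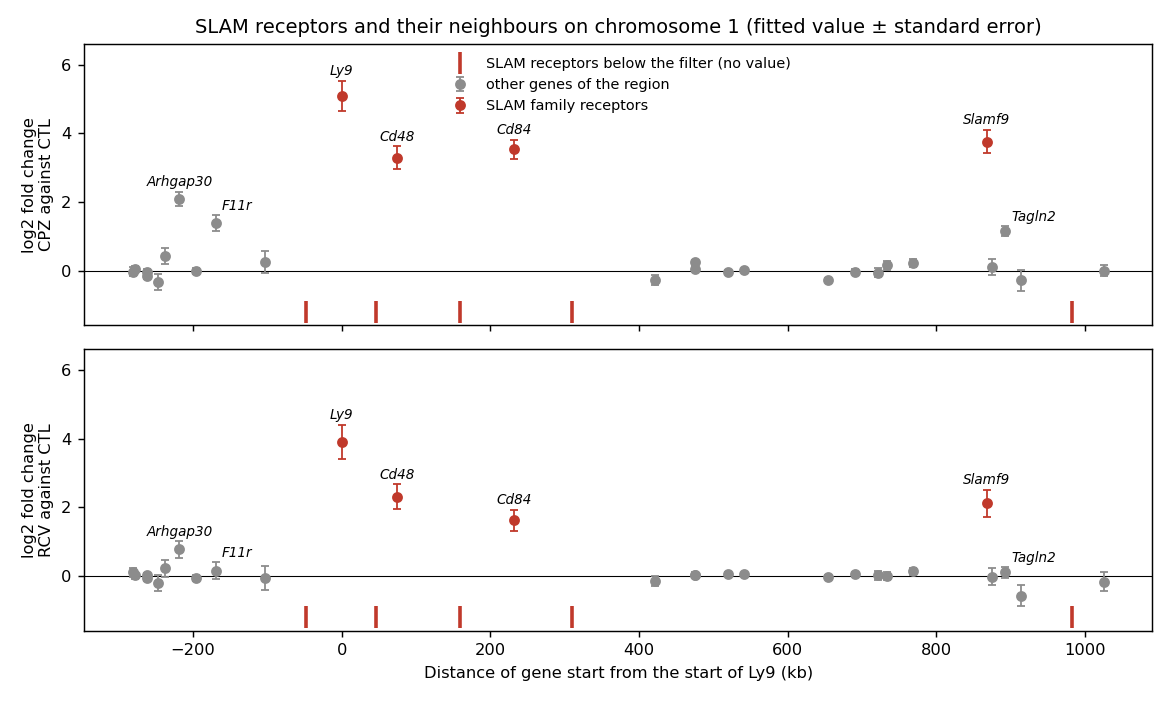
Log2 fold change with standard error (edgeR) of the tested genes around the SLAM receptors on chromosome 1, by distance of the gene start from the start of Ly9 in kb, for CPZ against CTL (upper panel) and RCV against CTL (lower panel). Red points are Ly9, Cd48, Cd84 and Slamf9, red ticks are receptors below the filter, and grey points are the 24 tested neighbours, the highest of which is Arhgap30 at 2.08 in the upper panel.

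The genes whose profile over the 13 libraries was most like each member were sought among the 14142 tested genes whose mean log2-CPM reached 1, by the root mean square (RMS) difference in log2-CPM after subtracting each gene's CTL mean. Nearest to Ly9 were Ccl6, a myeloid chemokine (RMS 0.569), Lilrb4a, an inhibitory receptor (0.605), and Cybb (0.643). Nearest to Cd84 were Tyrobp (0.215), the lysosomal protein gene Cd68 (0.26) and Ly86 (0.265), a partner of a Toll-like receptor homologue. Nearest to Slamf9 were the myosin Myo1f (0.306), the Fc receptor chain Fcer1g (0.35) and Cd84 (0.388), and nearest to Cd48 were the inhibitory receptor Lag3 (0.286), the phagosomal metal transporter Slc11a1 (0.341) and the astrocyte filament gene Gfap (0.372). The nearest gene thus lay further from Ly9 than from the other 3 members, and Ly9 also had the fewest CTL counts of the 4. These distances are a description over libraries that share 3 diets, and Slamf8 had no value because it did not pass the filter. In RCV against CTL the neighbours of Ly9 stood at log2 fold changes of 2.60 (Ccl6), 3.52 (Lilrb4a) and 3.38 (Cybb), and those of Cd84 at 1.33, 1.63 and 1.32.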

How the data were processed

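The authors deposited unscaled estimated counts for each gene, TPM values per gene, and a gene annotation with symbols and lengths. The submitters' processing notes name STAR, RSEM and the mm10 build, and the paper names RNASequest for these data, with no strand setting given in the sources used here. The estimated counts, of which 4.45% were not whole, were rounded, and 92 spike-in identifiers had 0 counts. Groups came from the sample labels. The labels' protocol and the paper's methods give fewer mice per group than the libraries, while a legend of the paper counts the same 13 samples, and all 13 libraries were used. No replicate pair agreed within sampling noise (chi-square per gene 4.23 to 16.3 over 22 pairs).

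Genes were filtered by filterByExpr, scaled by TMM and tested in one fit of all libraries with the robust quasi-likelihood F test of edgeR 4.0.16 (R 4.3.3), adjusted by Benjamini-Hochberg over 14985 genes with a threshold of 0.05. The script was tested on simulated counts. Log2-CPM used a prior count of 2. Ratios of summed counts used exact intervals, which cover counting error only. Alternatives used DESeq2 1.42.0, limma 3.58.1, other filters, thinning and left-out libraries. Python 3.11.15 served for descriptions. Library totals of 4605100 to 8197289 leave genes with a few counts per library, such as Ly9 in CTL, loosely measured.

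The members, gene lists and rules were chosen with earlier results of these data known. Genes named were the members, the fixed lists of other receptors, adaptors and partners, called neighbours within 250 kb, the 3 nearest profiles of each member and markers where a list is described, and some of these genes are counted in their lists but not reported here by name. Promoters came from RefSeq (GRCm38.p6) and positions from GENCODE M21, in which all 9 SLAM identifiers were found.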

Additional observations from a re-analysis of the deposited data

Results flagged for a closer look

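Slamf6 in CPZ replicate 3 stood apart from the other CPZ libraries, at a log2-CPM of -0.2189 against 1.12 to 1.17 in the other 3, by Dixon's ratio of gap to range (0.966). That library held 4 counts of Slamf6. Of 45 groups of values checked in this way 1 was picked out, and chance alone picks out about 1 in 20 such groups.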

How the results depend on the processing

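Ly9, Cd84, Slamf9 and Cd48 were higher in all 3 contrasts under all alternatives that gave a value. With limma on log2(TPM + 1), with or without the filter, the log2 fold changes in CPZ against CTL were 2.89 for Ly9, 3.11 for Cd84, 2.76 for Slamf9 and 2.37 for Cd48, and in RCV against CTL 1.89 for Ly9, 1.35 for Slamf9 and 1.55 for Cd48. A pseudocount of 0.1 gave Ly9 4.56 in CPZ against CTL. This scale understates the change of low genes by construction. Thinning gave Cd48 2.03 in RCV against CTL and Slamf9 2.06 in CPZ against RCV. Genes called in CPZ against CTL numbered 1522, and 993 with limma on TPM without the filter. Genes called in RCV against CTL numbered 56, with 131 by DESeq2, 16 by limma-voom, 16 with limma on TPM without the filter and 21 to 87 when single libraries were left out (21 without RCV replicate 2, 87 without CPZ replicate 3, 26 to 30 without CTL replicate 1, 3, 4 or 5, and 33 without RCV replicate 1). Genes called in CPZ against RCV numbered 1050, with 584 and 503 for TPM pseudocounts of 1 and 0.1, 477 without the TPM filter and 632 to 1170 when single libraries were left out (632 without CPZ replicate 1, 693 without CPZ replicate 2, 1170 without CTL replicate 4). The count of signalling partners called in RCV against CTL was 2 when only the groups compared were fitted, with Inpp5d added to Cybb, and in CPZ against RCV it was 4 with the TPM pseudocount of 0.1. In CPZ against CTL, 8 genes were called over the partners, adaptors, Cd2 and other receptors. That count was 10 without the filter on counts, without CPZ replicate 3 or when any RCV library was left out. No call of the 18 partners changed there, so the added calls lay among the adaptors, Cd2 or other receptors. Of these genes, Cd244a (80 summed counts in CPZ and 2 in CTL) and Slamf6 (48 and 10) had the most counts in CPZ. The shares on the CPM scale and without RCV replicate 3 were added after seeing the data. Other left-out libraries that moved no count by over 1.5 times are not listed, and the causes were not tested.

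The groups share replicate numbers, but only 3 of 12 same-numbered pairs had deviations correlated above 0.1 (range -0.199 to 0.136), so the numbers were treated as names. With the replicate number as a block, 1172, 42 and 755 genes were called in the contrasts of CPZ with CTL, RCV with CTL and CPZ with RCV, the members called were 4, 2 (Ly9 and Cd84) and 3 (all but Cd48), the partners called were 8, 1 and 7, and the log2 fold change of Ly9 was 5.42, 4.19 and 1.23. Depth limits Slamf8 and the receptors and adaptors that did not pass the filter, for which no fit was reported beyond that of Slamf8 without the filter.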
